A study of Mus musculus with 20 samples.

Results

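The 37 genes described here encode the tissue-specific basic helix-loop-helix (bHLH) transcription factors of the neural, muscle, mesodermal and blood lineages. They were taken from a fixed list of names, out of 21627 protein-coding genes. By role, 19 are neural factors, 5 skeletal muscle factors, 10 factors of mesoderm and connective tissue, and 3 blood factors. A Suz12 region was assigned to a gene when it lay within 1 kb of either annotated end (mm10), and 31 of the 37 genes had at least 1 such region, 39 regions of 11943 in all.

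Class II bHLH proteins of this kind bind the E-box, a short DNA element, as dimers with broadly expressed E proteins, while Id proteins take up the E proteins and prevent binding. Many of them act high in a differentiation programme: forced expression of Myod1 turns fibroblasts into muscle, and the neurogenins start neuronal differentiation. In embryonic stem cells most such genes are silent and carry Polycomb repressive complex 2 (PRC2), which methylates histone H3 at lysine 27 and of which Suz12 is a core subunit.

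Suz12 binding was profiled by ChIP-seq in E14 mouse embryonic stem cells of wild-type genotype, cultured with serum and LIF on gelatin, in 4 groups of 2 libraries each: DRB (100 µM) at 0 h and 12 h, and triptolide (10 µM) at 0 h and 9 h. DRB blocks the elongation step of RNA polymerase II by inhibiting a kinase, and triptolide blocks initiation through the TFIIH helicase. The comparisons ask how Suz12 at these genes stood before and after transcription was blocked. E14 is 1 cell line, the libraries are called biological replicates but nothing says that they came from separate cultures, and p-values therefore measure only the spread between these libraries.

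The libraries held 1323926 to 7340023 reads counted over the regions, and the 39 bHLH regions took 1.14 to 1.18% of them in the 4 untreated libraries and 0.907 to 0.937% in the 4 treated ones. No RNA was measured. As a check of the cells by Suz12 peaks, treated and untreated lists were pooled. A peak lay at 2 of 8 pluripotency genes, in 4 lists each, where 36.8% of all genes had a peak in any list. Of 8 genes of differentiated cells, 7 had one in all 8 lists, against 13.9% of all genes. In the test over both drugs described below, all 3 regions of the pluripotency genes rose (median log2 change 1.16), where 28.0% of all regions rose. Which lists held their peaks is not given here. A region called in treated lists alone is picked for being high there, so these rises were not taken as a check. Of the 10 regions of the differentiated genes 8 fell and 0 rose, where 28.9% of all regions fell. Untreated libraries carry lane numbers 1 and 4 and treated ones 3 and 6, so lane and treatment cannot be told apart. In bulk chromatin, fewer cells with Suz12 at a gene and less Suz12 per cell cannot be told apart either. The values are counts per 1e6 counted reads after TMM scaling (CPM), and changes are relative to the other regions, since totals of the libraries were not used.

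Before the inhibitors, most of the genes already carried Suz12. A peak lay at the ends of 26 of the 37 genes in all 8 lists (70.3%), against 13.9% of all protein-coding genes. Among other families of developmental regulators, 38 of 39 Hox genes, 12 of 16 T-box genes and 28 of 44 forkhead genes did so. Of the remaining bHLH genes, 5 had a peak in 1 to 7 lists (Tcf15, Scx, Tal2, Ferd3l and Nhlh2) and 6 had none (Neurod4, Nhlh1, Myf5, Myf6, Myog and Msgn1). Over all genes, 36.8% had a peak in at least 1 list. None of the 37 genes had a peak in the 4 treated lists alone (0 of 37, against 4.03% of all genes), and none had one in the 4 untreated lists alone. When narrower peaks than the median width (1357 bp) were left out, 2 of the 37 had peaks in the 4 treated lists alone. That filter drops narrow untreated peaks as well, and the share of all genes under it was not counted.

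Promoter sequences of 6 genes, chosen by hand as examples, are printed. Some had a peak over the start site and others had no peak within 1 kb of their ends. The CpG counts of these classes overlap, as given below, so the printed sequences do not stand for their classes. Each is the stretch of 250 bases before the annotated start site, 5′ to 3′ on the strand of the gene, from RefSeq (GRCm38.p6), with CpG dinucleotides in capitals. Olig2, Twist1 and Neurog2 had a peak over the start site in all 8 lists, and Nhlh1, Neurod4 and Myf5 had none within 1 kb of an end in any list, although Nhlh1 had a region deeper inside the gene.
Olig2 (chr16:91225300-91225549, + strand): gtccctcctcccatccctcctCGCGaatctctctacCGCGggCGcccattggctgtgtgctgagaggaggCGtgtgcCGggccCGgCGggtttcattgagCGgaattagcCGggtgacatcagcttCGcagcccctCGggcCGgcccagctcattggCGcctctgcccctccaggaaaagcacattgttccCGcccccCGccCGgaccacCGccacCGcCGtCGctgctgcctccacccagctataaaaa
Twist1 (chr12:33957421-33957670, + strand): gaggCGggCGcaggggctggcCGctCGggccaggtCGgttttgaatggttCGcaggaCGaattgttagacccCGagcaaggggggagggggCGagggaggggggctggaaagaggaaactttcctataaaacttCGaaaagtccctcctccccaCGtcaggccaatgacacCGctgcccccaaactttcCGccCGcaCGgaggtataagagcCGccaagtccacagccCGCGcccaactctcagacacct
Neurog2 (chr3:127632886-127633135, + strand): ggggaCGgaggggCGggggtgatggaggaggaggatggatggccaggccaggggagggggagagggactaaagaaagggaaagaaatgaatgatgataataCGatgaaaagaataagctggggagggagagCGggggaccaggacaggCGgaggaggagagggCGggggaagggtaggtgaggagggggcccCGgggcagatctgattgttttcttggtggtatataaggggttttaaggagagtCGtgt
Nhlh1 (chr1:172057597-172057846, - strand): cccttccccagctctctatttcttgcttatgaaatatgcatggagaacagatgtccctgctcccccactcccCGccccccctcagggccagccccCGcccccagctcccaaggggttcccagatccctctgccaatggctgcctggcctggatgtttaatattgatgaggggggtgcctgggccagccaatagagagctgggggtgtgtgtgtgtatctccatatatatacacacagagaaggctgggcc
Neurod4 (chr10:130280255-130280504, - strand): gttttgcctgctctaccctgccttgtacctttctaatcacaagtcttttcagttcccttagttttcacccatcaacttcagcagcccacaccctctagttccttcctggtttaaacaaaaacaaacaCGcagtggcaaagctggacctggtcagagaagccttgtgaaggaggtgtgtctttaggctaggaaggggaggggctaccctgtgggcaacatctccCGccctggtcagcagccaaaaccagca
Myf5 (chr10:107486135-107486384, - strand): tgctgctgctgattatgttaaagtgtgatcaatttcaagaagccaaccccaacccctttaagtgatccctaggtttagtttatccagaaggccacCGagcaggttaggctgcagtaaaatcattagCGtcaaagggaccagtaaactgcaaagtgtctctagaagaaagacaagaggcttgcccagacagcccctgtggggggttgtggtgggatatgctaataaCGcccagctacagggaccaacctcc
The stretch upstream of Olig2 holds 22 CpG and that of Twist1 holds 18, while Neurog2 holds 8, Myf5 holds 3, and Nhlh1 and Neurod4 hold 2 each.

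Promoter windows of 300 bases (250 before and 50 after the start site) were found for 29 of the 37 genes, too few to summarise all 37, so they are described by peak class. In the 21 matched genes with a peak in all 8 lists (of 26) the window held a median of 17 CpG, with 3 at the lowest and 32 at Neurog1. In the 5 matched genes without a peak (of 6) it held a median of 4, with 2 at the lowest and 9 at Myog. Over all 17273 genes with a window the median was 14, with 21.5 for genes with a peak in all 8 lists and 7 for genes with no peak. The 3 matched genes with a peak in 1 to 7 lists held 16 CpG at Tal2, 6 at Ferd3l and 2 at Nhlh2. Olig3 and Mesp1, with 4 CpG each, had a peak over the start site in all 8 lists. Neurod6 (3 CpG) and Lyl1 (7) also count as genes with a peak in all 8 lists, but a peak lay over the start site in 0 lists at Neurod6 and in 3 at Lyl1. The E-box letters CANNTG, which read the same on both strands, occurred in 14 of the 21 windows of genes with a peak in all 8 lists, in 3 of the 5 without a peak, and in 68.8% of all windows.

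**Figure D1:**
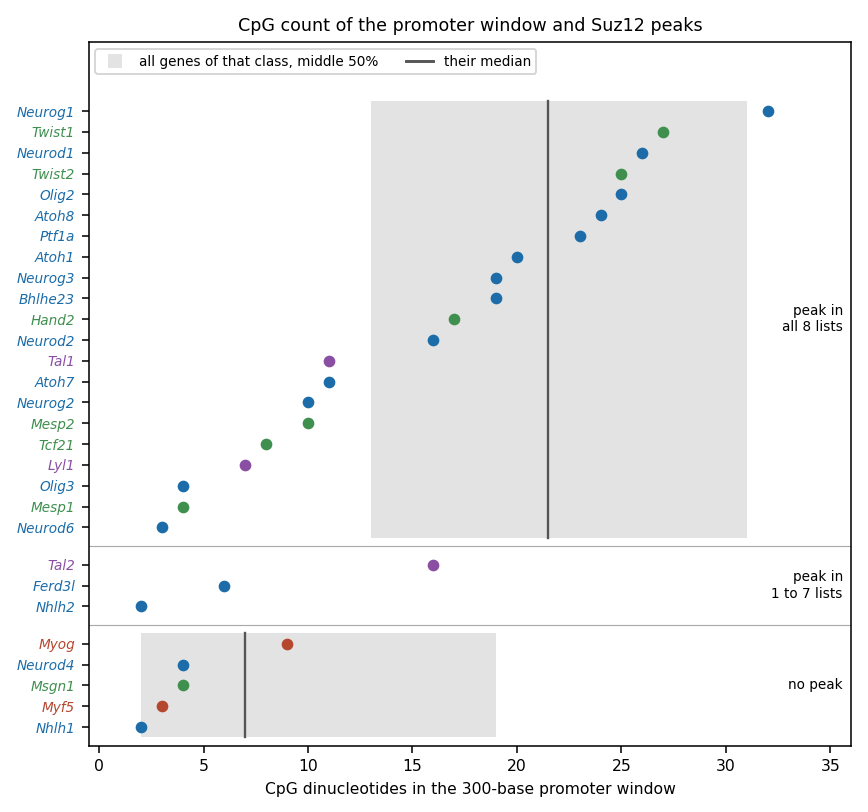
CpG dinucleotides in the 300-base promoter window (x axis) of the 29 matched bHLH genes (y axis), in 3 blocks by the number of lists with a peak; grey bands give the middle 50% and dark lines the median over all genes with a peak in all 8 lists (21.5) or with no peak (7). The 5 genes without a peak lie between 2 and 9, and those with a peak in all 8 lists between 3 and 32.

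The regions were long and often took in the whole gene. At 9 of the 26 genes with a peak in all 8 lists the annotated gene lay entirely inside its regions, among them Neurog1, Neurog3, Neurod2, Atoh1, Olig1, Olig2, Hand1, Hand2 and Mesp1. The annotation used gives the extent of each gene and not its exons. The widest region was at Olig2, the regulator of motor neurons and oligodendrocytes, and spanned 12581 bp (chr16:91218735-91231315), from 6815 bp upstream to 5765 bp downstream of the start site. Of the 21 genes with a window and a peak in all 8 lists, 17 had their start site under a peak in every list. The exceptions were Tcf21 and Neurod1 with 7 lists, Lyl1 with 3 and Neurod6 with 0. The Neurod6 region (chr6:55676568-55677489) began 3774 bp downstream of the start site, beyond the other end of the gene. At Nhlh2 the region (chr3:102011075-102013558) began 930 bp downstream of the start site and had peaks in all 8 lists, of which only 1 came within 1 kb of an end.

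**Figure D2:**
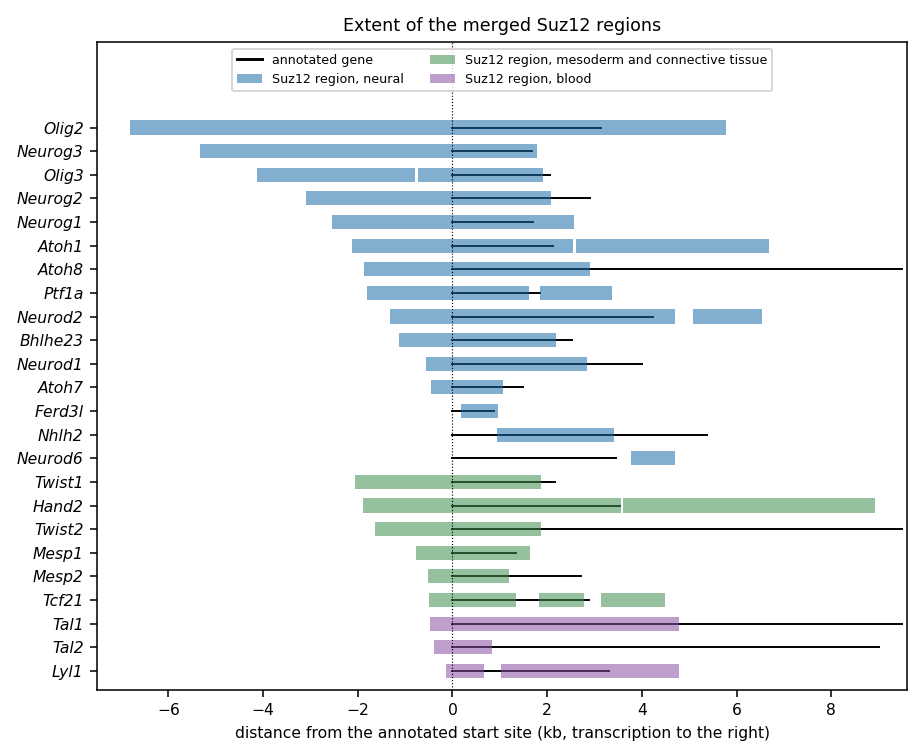
Merged Suz12 regions (coloured bars) of 24 bHLH genes with a promoter window, by distance from the annotated start site in kb, with transcription to the right; black lines show the annotated gene and are cut at the right for Atoh8, Twist2 and Tal1. The Olig2 bar is the longest at 12581 bp, and the Neurod6 bar lies past the end of the gene.

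After the inhibitors, Suz12 counts fell at most bHLH regions and rose at 2. In edgeR's quasi-likelihood test over both drugs, 30 of 39 regions fell and 2 rose at an adjusted p under 0.05, where 28.9% of all regions fell and 28.0% rose. The median log2 change of the 39 regions was −0.56, against 0.049 over all regions and −0.38 over the 4281 regions with a peak in all 8 lists. The falls ran from −0.30 at Neurog3 (1.23-fold lower) to −1.05 at the upstream region of Olig3 (2.07-fold lower). By gene, 23 of the 31 with counts fell in at least 1 region, Scx and Tcf15 rose, and Neurod1, Atoh7, Msc, Mesp2, Lyl1 and Tal2 passed in neither direction. The CPM of the 4 treated libraries were all lower than those of the 4 untreated libraries at 26 of the 39 regions (25.2% of all regions) and all higher at 2 (24.4%).

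The number of falls depended on the scaling. Scaled to the regions with a peak in all 8 lists, which shifts the median of all regions up by 0.34, 18 bHLH regions fell and 5 rose, at a median of −0.22 (11.2% of all regions fell and 47.4% rose). Over all regions the share of calls that were rises went from 49.2% to 80.8% with that scaling. With the plain sum of counts as library size 26 bHLH regions fell and 3 rose (18.7% of all regions fell and 39.0% rose), and 67.5% of all calls were rises. All 18 falls were also falls with TMM scaling, and the rises of Scx and Tcf15 held in both. The genes called in every region with TMM scaling and in none with the other were Atoh8, Bhlhe22, Mesp1, Neurod2, Neurog3, Nhlh2, Tal1 and Twist1, and of these Neurog3 changed sign, to 0.047.

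**Figure D3:**
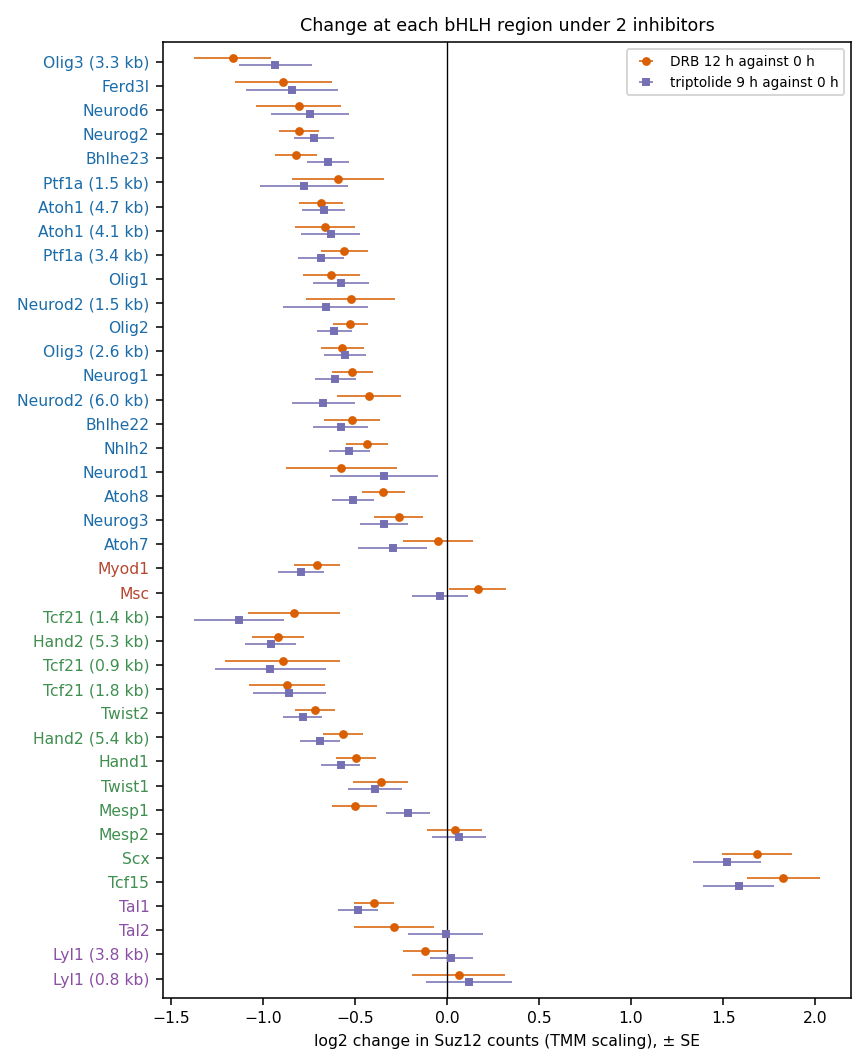
Log2 change of Suz12 counts (x axis, TMM scaling, ± SE) at each of the 39 bHLH regions (y axis; a width in kb is added where a gene has several) after DRB and after triptolide, with labels coloured by lineage. Scx and Tcf15 lie above 1.5 under both drugs, and most other regions lie below 0. With counts scaled to the regions with a peak in all 8 lists the points would lie further right, by unequal amounts for the drugs. The median of all regions moves from 0.055 to 0.356 under DRB and from 0.032 to 0.412 under triptolide.

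Among neural factors, 19 of 21 regions fell and none rose, at a median log2 change of −0.59. With kept-region scaling, that is, with counts scaled to the regions with a peak in all 8 lists, 11 fell and 0 rose. Over all regions 28.9% fell and 28.0% rose (11.2% and 47.4% with kept-region scaling). Bhlhe23 (chr2:180774720-180778031), a factor of the nervous system, had the highest density of the bHLH genes, at a mean of 161 CPM per kb in untreated libraries. Its region counted 542 and 484 CPM at DRB 0 h, 293 and 287 at DRB 12 h, 521 and 585 at triptolide 0 h, and 350 and 356 at triptolide 9 h. The treated libraries were the 4 lowest, with a log2 change of −0.73 ± 0.08 (SE, adjusted p = 2.00e-05; −0.39 when scaled to kept regions).

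Ptf1a, a factor of pancreas and of inhibitory neurons, followed at 159 CPM per kb, Neurod2, a factor of cortical neurons, at 152, Nhlh2, a factor of hypothalamic neurons, at 148 and Olig1, of the oligodendrocyte lineage, at 146. These 5 densities were not tested against each other, and their libraries overlap in the plot of density by library. Nhlh2 counted 366 and 345 CPM at DRB 0 h, 274 and 251 at DRB 12 h, 368 and 384 at triptolide 0 h, and 268 and 253 at triptolide 9 h. The groups did not overlap, and the log2 change was −0.48 ± 0.08 (SE, adjusted p = 2.94e-04), which was not called with kept-region scaling (−0.14).

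Olig3, a factor of the dorsal neural tube, had 2 adjoining regions. The one over the gene (chr10:19355808-19358457) changed by −0.56 ± 0.08 (SE). The upstream one (chr10:19352418-19355755), which ends short of the start site, counted 108 and 132 CPM at DRB 0 h, 40.0 and 65.1 at DRB 12 h, 158 and 138 at triptolide 0 h, and 83.1 and 72.0 at triptolide 9 h. The treated libraries were again the 4 lowest, and its log2 change of −1.05 ± 0.14 (SE, adjusted p = 7.94e-05; −0.70 when scaled to kept regions) was the largest fall among the 39 regions. The wide Olig2 region counted 1457 and 1445 CPM at DRB 0 h, 1020 and 997 at DRB 12 h, 1479 and 1635 at triptolide 0 h, and 1001 and 1037 at triptolide 9 h. The log2 change there was −0.57 ± 0.07 (SE, adjusted p = 3.23e-05; −0.22 when scaled to kept regions), again with no overlap.

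The neurogenins, which commit progenitors to a neuronal fate and, for Neurog3, to pancreatic endocrine fate, all fell over both drugs with TMM scaling. The log2 change was −0.76 ± 0.08 at Neurog2, −0.56 ± 0.08 at Neurog1 and −0.30 ± 0.09 at Neurog3 (SE), and differences between the 3 were not tested. Neurog3 passed over both drugs (adjusted p = 0.0142) and under neither drug alone (adjusted p = 0.136 for DRB and 0.0509 for triptolide). Without DRB 0 h index ATCACG, its adjusted p over both drugs was 0.0588, and without triptolide 9 h replicate 1 or 2 it was 0.0524 and 0.0687.

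Ferd3l, a factor of the ventral neural tube, had the lowest density of the neural genes at 31.2 CPM per kb, with a peak in 2 untreated lists and 1 treated list. Its region (chr12:33928597-33929386), which begins 172 bp downstream of the start site, counted 25.5 and 22.1 CPM at DRB 0 h, 9.20 and 14.7 at DRB 12 h, 25.2 and 25.6 at triptolide 0 h, and 13.5 and 14.8 at triptolide 9 h. The groups did not overlap, and the log2 change was −0.87 ± 0.18 (SE, adjusted p = 0.00146; −0.53 when scaled to kept regions). Neurod6, a neuronal factor with the region beyond the gene, changed by −0.77 ± 0.16 (SE, adjusted p = 0.00113).

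Neurod1, a factor of neurons and of the endocrine pancreas, and Atoh7, which is needed for retinal ganglion cells, were the neural genes that did not pass. Neurod1 counted 89.6 and 117 CPM at DRB 0 h, 38.4 and 96.4 at DRB 12 h, 113 and 91.3 at triptolide 0 h, and 82.5 and 78.9 at triptolide 9 h. The 2 DRB 12 h libraries stood far apart, and the change was −0.46 ± 0.21 (SE, adjusted p = 0.0789). Without the one of index TGACCA it came to −0.90, when 1 library, the low one at 38.4 CPM, stood for DRB 12 h. The library of index TGACCA, at 96.4 CPM, lay within the range of the untreated libraries. Atoh7 had −0.17 ± 0.13 (SE, adjusted p = 0.283), and its sign turned with kept-region scaling (0.17) and with the sum of counts (0.028). Atoh1, the factor of cerebellar granule neurons and inner ear hair cells, fell by 0.68 and 0.65 on the log2 scale in its 2 regions, Bhlhe22 by 0.55 and Atoh8 by 0.43.

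The muscle factors divided into 2 with Suz12 regions and 3 without. Myod1 (chr7:46375958-46378903), the myogenic determination factor, counted 198 and 215 CPM at DRB 0 h, 133 and 122 at DRB 12 h, 201 and 202 at triptolide 0 h, and 112 and 121 at triptolide 9 h. The treated libraries were the 4 lowest, with a log2 change of −0.75 ± 0.09 (SE, adjusted p = 3.20e-05; −0.41 when scaled to kept regions). Msc, or musculin, a repressor that competes at E-boxes in muscle progenitors, counted 100 and 83.1 CPM at DRB 0 h, 108 and 95.5 at DRB 12 h, 95.8 and 98.2 at triptolide 0 h, and 101 and 88.3 at triptolide 9 h. The groups overlapped, and its log2 change was 0.065 ± 0.11 (SE, adjusted p = 0.629), which became 0.41 and passed with kept-region scaling and turned to −0.012 without DRB 0 h index TGACCA. Untreated densities were 71.3 CPM per kb at Myod1 and 58.8 at Msc.

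Myf5 and Myf6, neighbours on chromosome 10 that act beside Myod1 in myogenesis, had no region within 200 kb: the nearest lay 210 kb from Myf5 and 219 kb from Myf6. Myog, the factor of myoblast fusion, had none at its ends. The nearest region to Myog (chr1:134298008-134299875, 5.46 kb away, in all 8 lists) had no gene end within 1 kb. It counted 67.4 and 54.8 CPM at DRB 0 h, 104 and 99.9 at DRB 12 h, 63.9 and 57.0 at triptolide 0 h, and 113 and 106 at triptolide 9 h. The 4 treated libraries were the 4 highest there, and the counts rose by 0.81 ± 0.11 on the log2 scale (SE, adjusted p = 7.77e-05; 1.15 when scaled to kept regions).

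Mesodermal and connective tissue factors held both directions: of 12 regions 9 fell and 2 rose, at a median log2 change of −0.58. Scaled to kept regions, 6 fell and 3 rose. Of all regions 28.9% fell and 28.0% rose (11.2% and 47.4% when scaled to kept regions). Twist2 (chr1:91799819-91803326), a factor of mesenchyme, had the highest density of the group, at 128 CPM per kb. It counted 434 and 430 CPM at DRB 0 h, 264 and 262 at DRB 12 h, 452 and 457 at triptolide 0 h, and 270 and 258 at triptolide 9 h. The replicates lay close together and the groups apart, with a log2 change of −0.75 ± 0.08 (SE, adjusted p = 1.18e-05; −0.41 when scaled to kept regions). Twist1, needed for cranial mesenchyme, changed by −0.38 ± 0.10 (SE, adjusted p = 0.00850), its groups overlapped, and it was not called with kept-region scaling (−0.029) or with the sum of counts (−0.17, adjusted p = 0.107).

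Hand1 and Hand2, the cardiac factors, had regions of 7754 bp at Hand1 and of 5449 and 5327 bp at Hand2, each over or beside the whole gene. Hand1 fell by 0.54 on the log2 scale. At Hand2 the region over the gene (chr8:57319093-57324541) fell by 0.63 and the adjoining region (chr8:57324576-57329902) by 0.94. Tcf21, a factor of the epicardium and of kidney and lung mesenchyme, had 3 regions that fell by 0.86, 0.93 and 0.98, of which 2 were called with kept-region scaling. Mesp1, which marks cardiac progenitors, changed by −0.36 ± 0.09 (SE, adjusted p = 0.00365) and by −0.013 with kept-region scaling.

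Tcf15, also called paraxis, a factor of paraxial mesoderm, rose most. Its region (chr2:152142834-152145091), over the lower-coordinate end of the gene, counted 51.0 and 41.2 CPM at DRB 0 h, 189 and 132 at DRB 12 h, 41.6 and 46.2 at triptolide 0 h, and 127 and 136 at triptolide 9 h. The lowest treated library lay above the highest untreated one, with a log2 change of 1.71 ± 0.14 (SE, 3.26-fold higher, adjusted p = 2.70e-06). The change ran from 1.59 to 2.04 over the alternatives, with an adjusted p of at most 1.17e-04. Peaks covered 893, 769, 0 and 988 bp in the untreated lists and 1836, 2218, 2062 and 1885 bp in the treated ones.

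Scx, or scleraxis, the factor of tendon progenitors, rose to a like degree. Its region (chr15:76456934-76458739) also lies at Bop1, so the counts cannot be assigned to Scx alone. It counted 38.6 and 40.0 CPM at DRB 0 h, 150 and 107 at DRB 12 h, 34.7 and 38.6 at triptolide 0 h, and 102 and 108 at triptolide 9 h. The groups lay wholly apart, with a log2 change of 1.60 ± 0.13 (SE, 3.04-fold higher, adjusted p = 3.33e-06) and a range of 1.49 to 1.94 over the alternatives. Peaks covered 0, 927, 0 and 883 bp in the untreated lists and 1747, 1754, 1679 and 1489 bp in the treated ones. Tcf15 and Scx had the lowest untreated densities of the bHLH regions, 20.3 and 21.7 CPM per kb, and both entered with more treated than untreated lists (4 and 3 for Tcf15, 4 and 2 for Scx). These densities were taken over the widest peak of the region, which came from a DRB 12 h list at both genes. It was 2218 bp wide at Tcf15 and 1754 bp at Scx, wider than any untreated peak there.

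Mesp2, which sets segment boundaries in the somite, had wider peaks after treatment at nearly equal CPM. Peaks covered 951, 1075, 1094 and 1151 bp in the untreated lists and 1339, 1696, 1613 and 1632 bp in the treated ones, 1.47 times as long in the mean. The region (chr7:79810218-79811916) counted 65.7 and 67.8 CPM at DRB 0 h, 69.2 and 68.7 at DRB 12 h, 64.8 and 70.4 at triptolide 0 h, and 69.8 and 71.6 at triptolide 9 h. The groups overlapped and the log2 change was 0.054 ± 0.10 (SE, adjusted p = 0.674), against 0.40 and a call with kept-region scaling. Msgn1, a factor of presomitic mesoderm, had no region nearer than 56.8 kb.

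Of the 31 bHLH genes with a peak, 3 (Mesp2, Tcf15 and Scx) had a covered length greater in every treated list than in any untreated list, against 26.6% of all genes with a peak. None of the 31 had it shorter in every treated list, against 0.314% of all genes with a peak. Of the 26 with a peak in all 8 lists, Mesp2 alone had it longer and 0 had it shorter, against 16.8% and 0.466% of all genes with a peak in all 8 lists. Over these 26 genes with a peak in all 8 lists, the median ratio of treated to untreated covered length was 0.96, from 0.72 at Neurog1 to 1.47 at Mesp2. Each list holds the peaks of 1 library, and depth differed between libraries. Counted reads were 1323926 to 4396744 in untreated and 2416530 to 7340023 in treated libraries. The effect of depth on covered length and on the number of lists with a peak was not tested.

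**Figure D4:**
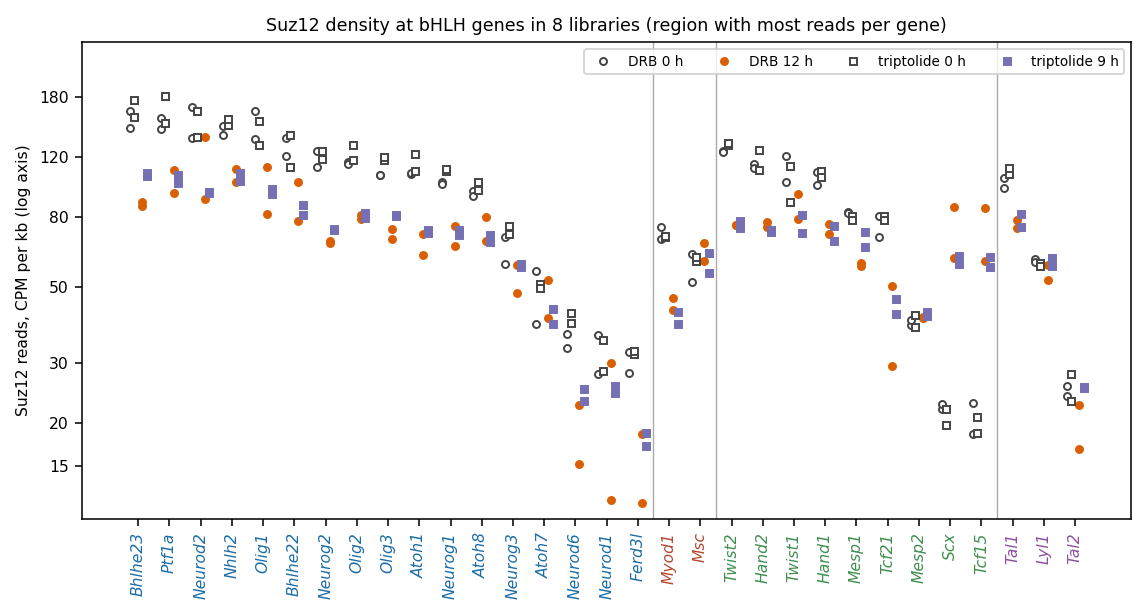
Suz12 density (y axis, CPM per kb, log scale) in each of the 8 libraries for the region with the most reads of the 31 bHLH genes with counts (x axis, names coloured by lineage, blocks divided by lines); open symbols are untreated and filled symbols treated libraries. Filled symbols lie above all open ones only at Scx and Tcf15, and the left-hand neural genes and the Twist and Hand genes lie mostly above 80 CPM per kb before treatment.

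Of the 3 blood factors, Tal1 alone passed: of 4 regions 1 fell and none rose, at a median log2 change of −0.097. Scaled to kept regions, 0 fell and 1 rose. With 4 regions, 1 fall is near the share of all regions that fell (28.9%, with 28.0% rising). Scaled to kept regions, 11.2% of all regions fell and 47.4% rose. Tal1 (chr4:115055949-115061198), the master factor of blood formation, counted 546 and 508 CPM at DRB 0 h, 390 and 411 at DRB 12 h, 560 and 584 at triptolide 0 h, and 427 and 392 at triptolide 9 h. The groups did not overlap, and the log2 change was −0.44 ± 0.08 (SE, adjusted p = 4.16e-04), which was −0.092 and not called with kept-region scaling. Its density of 105 CPM per kb was the highest of the 3.

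Lyl1, a close relative of Tal1, had a wide region (chr8:84702478-84706232, also at Nfix) that began 1021 bp downstream of the start site and ran past the other end of the gene, and a small one over the start site (chr8:84701320-84702120) with a peak in 0 untreated and 3 treated lists. The wide region counted 227 and 222 CPM at DRB 0 h, 217 and 197 at DRB 12 h, 220 and 217 at triptolide 0 h, and 228 and 216 at triptolide 9 h. These values overlapped, with a log2 change of −0.047 ± 0.083 (SE, adjusted p = 0.645) that turned to 0.29 and passed with kept-region scaling and was 0.15 with the sum of counts. The small region counted 18.1 and 17.4 CPM at DRB 0 h, 21.2 and 16.6 at DRB 12 h, 23.5 and 17.3 at triptolide 0 h, and 22.6 and 22.1 at triptolide 9 h, so that the counts overlapped where the lists had peaks only after treatment (log2 change 0.092 ± 0.17, SE, adjusted p = 0.665).

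Tal2, a midbrain and blood factor, had a peak in 1 untreated and 3 treated lists. Its region (chr4:53779305-53780536) counted 31.2 and 29.2 CPM at DRB 0 h, 20.4 and 27.4 at DRB 12 h, 33.8 and 28.2 at triptolide 0 h, and 31.1 and 30.8 at triptolide 9 h. The groups overlapped, with a log2 change of −0.15 ± 0.15 (SE, adjusted p = 0.411) whose sign turned with kept-region scaling (0.19) and with the sum of counts (0.051). At 25.2 CPM per kb, Tal2 was near the lower end of the bHLH densities.

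Each drug was also tested alone. Under DRB 25 of the 39 regions fell and 2 rose (19.2% and 18.1% of all regions), and under triptolide 28 fell and 2 rose (21.9% and 19.3%). Scaled to kept regions, 9 fell under each drug, against 5.03% of all regions under DRB and 4.98% under triptolide. Without triptolide 9 h replicate 1 the falls under triptolide numbered 17 (9.94% of all regions), and without replicate 2 they numbered 14 (9.36%). With all libraries, the same 24 regions fell under both, and 37 of 39 had the same sign. Among the regions that fell over both drugs, these did not pass under at least 1 of them: those of Mesp1, Twist1 and Neurog3, both of Neurod2 and the smaller one of Ptf1a. In edgeR's test of the difference between the drugs, 0 of the 39 regions passed (0.0167% of all regions were lower and 0.0% higher), 0 had an unadjusted p under 0.05, and DESeq2 also called 0. The smallest unadjusted p was 0.116, at Mesp1, which changed by −0.50 ± 0.12 under DRB and by −0.21 ± 0.12 under triptolide (SE). The 95% intervals of the difference had a median half-width of 0.45 on the log2 scale and reached from −1.14, at Neurod1, to 1.05, at a region of Tcf21. Agent and time differ together between the 2 treatments.

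The changes were set against the density before treatment. Of the 31 bHLH regions with a peak in all 8 lists, 26 fell (83.9%), against 59.1% of all such regions, of which 10.3% rose. The bHLH regions were dense: 17 of the 31 (54.8%) lay in the highest quartile of untreated density, above 82.4 CPM per kb. All 17 of these fell, at a median log2 change of −0.56, and so did 87.5% of all regions in that quartile, at a median of −0.51. In the lowest quartile, up to 43.3 CPM per kb, 3 of 5 bHLH regions fell, against 26.2% of all regions there. Between these, 1 of 3 bHLH regions fell in the quartile up to 58.8 CPM per kb, against 53.3% of all regions there, and 5 of 6 fell in the next, against 69.3%. The density and the change share the untreated libraries, and bHLH regions were not tested against other regions of like density. Both were counted over the widest peak of a region, which can come from a treated list.

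**Figure D5:**
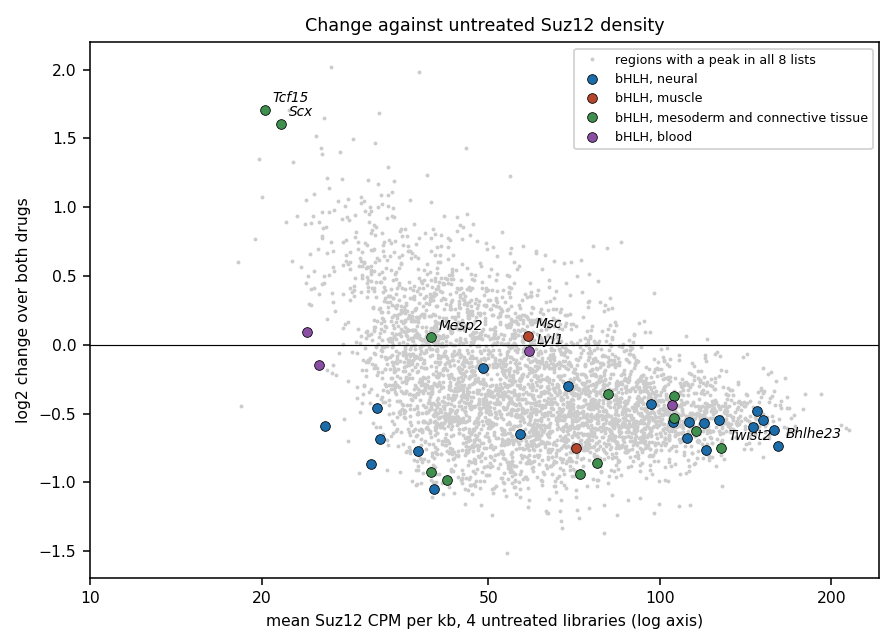
Log2 change over both drugs (y axis, TMM scaling) against the mean untreated density (x axis, CPM per kb, log scale) for the 39 bHLH regions, coloured by lineage, and for the 4281 regions with a peak in all 8 lists (grey). Tcf15 and Scx lie at the left with 1.71 and 1.60, and all bHLH regions above 82.4 CPM per kb lie below 0; with kept-region scaling every point would lie about 0.34 higher.

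Other developmental families were counted in the same way. Of 43 Hox regions 43 fell, at a median of −0.60, of 20 T-box regions 15 fell and 1 rose, at a median of −0.62, and of 52 forkhead regions 28 fell and 12 rose, at a median of −0.38. With kept-region scaling 24 Hox regions fell and 0 rose, 13 T-box regions fell and 3 rose, and 15 forkhead regions fell and 20 rose. Of all regions 28.9% fell and 28.0% rose, and with kept-region scaling 11.2% fell and 47.4% rose. The family values are counts and medians, and no family was tested against another.

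Suz12 was also counted at the partners and inhibitors of the lineage bHLH proteins and at other bHLH genes. Over all regions 28.0% rose and 28.9% fell (47.4% and 11.2% when scaled to kept regions), and 13.9% of all genes had a peak in all 8 lists. Several counts below lie near these shares, and such a count is no result about its list. Of the 7 E protein and Id genes, Tcf3 and Tcf4 had no peak in any list, and the 5 others held 6 regions of which 1 rose and 1 fell (4 rose and 0 fell when scaled to kept regions). Id1, with a peak in 5 lists, rose by 1.11 ± 0.14 on the log2 scale (SE, adjusted p = 5.71e-05). Of the 2 regions at Id2, 1 changed by −0.83 ± 0.19 (SE, adjusted p = 0.00222; not called with kept-region scaling, at −0.49). Of 24 other lineage or signalling bHLH genes, such as the Ascl, Hes and Hey genes, 14 had a peak in all 8 lists. In their 27 regions 8 rose and 11 fell (11 and 5 when scaled to kept regions), with the largest rise at Bhlhe40 (0.98 ± 0.17), a clock-related repressor, and the largest fall at Helt (−0.87 ± 0.09, SE), a factor of inhibitory neurons. The 29 bHLH-zip and bHLH-PAS genes include broadly expressed genes and tissue-restricted ones such as the Sim and Npas genes. Of the 29, 7 had a peak in all 8 lists, and of 24 regions 10 rose and 6 fell (15 and 3 when scaled to kept regions). The 6 falls were at Sim1, Npas1, Npas2, Npas3 and both regions of Sim2. The largest rise of the list was at Epas1 (1.29 ± 0.10), a hypoxia factor, and the largest fall at Sim1 (−0.61 ± 0.09, SE), a factor of the hypothalamus.

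Regions near the other 2 genes without a peak at their ends were as follows. Nhlh1, a neuronal factor, had a region inside the gene (chr1:172053404-172054844, in all 8 lists) 1112 bp from the nearer end, just outside the window, with a log2 change of −0.25 ± 0.12 (SE, adjusted p = 0.0841; 0.095 when scaled to kept regions). Neurod4, which acts in neuronal differentiation, had its nearest region 190 kb away.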

How the data were processed

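The analysis used 8 Suz12 ChIP-seq libraries, 2 in each of 4 groups, from a series of 20 samples, of which 12 were not analysed here. Alignment was by Bowtie and peak calling by MACS, per the submitters' processing notes, on mm10 (GRCm38), with versions not given in the sources used here. Each list that the authors deposited holds the peaks of 1 library and raw read counts over them in 13 columns, of which 5 match no sample used and were left out. DRB count columns carry an index in place of a replicate number, so DRB counts are named by index and were not matched to a list.

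An overlap of 1 bp or more joined peaks into 11943 regions, and a region took the counts of its widest peak. All regions were fitted together in edgeR 4.0.16 (R 4.3.3, quasi-likelihood, TMM, no filter on low counts, 4 group means), and p-values were adjusted over all regions by Benjamini-Hochberg, with a threshold of 0.05. CPM stands for counts per 1e6 counted reads after TMM scaling, and intervals are at 95%. On simulated data with 200 of 11943 regions changed, the test over both drugs found 61.2% of the regions changed 1.5-fold, 94% at 2-fold and 100% at 3-fold, with calls at 7 of 11743 unchanged regions. At 2-fold it found 71.6% under DRB and 77.6% under triptolide. These rates need not hold for the data, since the simulation gave all regions and groups 1 common spread. In the data 3451 regions fell and 3339 rose over both drugs, far more than the 200 changed in the simulation. The chi-square between replicates, divided by its degrees of freedom, was 2.47 to 8.66, highest at DRB 12 h and above counting noise.

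The genes and lists were chosen with earlier results of these data known. Values in every library are given by rule, within each lineage, for the genes of highest and lowest untreated density and of largest change, for those against the majority's direction, and for those with a peak in 1 to 7 lists. Olig2 (for its width), Neurod1 (for its spread), the smaller Lyl1 region and the region near Myog were added after their values were seen. From each list of partners or of further lineage genes the largest rise and the largest fall that passed are named. Alternatives were DESeq2 1.42.0, other scalings, filters, windows and peak widths, a replicate block and leaving out each library.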

Additional observations from a re-analysis of the deposited data

How the results depend on the processing

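Of 465 values of single genes under alternatives, 440 kept their direction and their side of the threshold. With kept-region scaling, the 39 regions gave 18 falls and 5 rises over both drugs (median −0.22), 9 falls under DRB (median −0.22), and 9 falls and 4 rises under triptolide (median −0.22), as it moves the median of all regions up by 0.34. The median difference between the drugs turned from 0.066 to −0.010 with that scaling. The genes that turned sign there were Atoh7 (0.17), Lyl1 (0.29), Neurog3 (0.047) and Tal2 (0.19). With the sum of counts the medians were −0.36 over both drugs, −0.36 under DRB and −0.37 under triptolide, and Atoh7 (0.028), Lyl1 (0.15) and Tal2 (0.051) turned sign. Peaks of at least the median width gave 2 genes with peaks in treated lists alone, with the share of all genes not counted. Leaving out each library gave 29 to 31 falls over both drugs (medians −0.57 to −0.55), 17 to 26 under DRB and 14 to 29 under triptolide, with 2 rises each. The 14 falls came without triptolide 9 h replicate 2, and 17 came without replicate 1, when 1 library stood for the group and was taken to vary like the others. The median difference between drugs ran from −0.038 (without DRB 12 h index TGACCA) to 0.073. Msc ran from −0.012 (without DRB 0 h index TGACCA) to 0.12. Leaving out each list gave 26 to 27 genes with peaks in all lists and 6 to 7 with none. DESeq2 called 30 falls and 2 rises over both drugs, and 3228 falls and 2751 rises among all 11943 regions. Only the triptolide columns carry replicate numbers, which may pair the libraries: deviations of equal numbers correlated at 0.391 over 2 pairs, too few to show pairing. With the replicate block 30 regions fell and 2 rose over both drugs (median −0.56), 24 fell under DRB (median −0.53) and 28 under triptolide (median −0.61), with a median difference of 0.055. Among all regions that block gave 3394 falls and 3271 rises over both drugs, 2181 falls under DRB and 2487 under triptolide. Where no cause is given, the cause was not tested. The intervals of the drug difference had a median width to either side of 0.45, with 2 libraries in each group.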

Other observations

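Further genes of the lineages in which these bHLH proteins act were counted by the same rule. They were listed by lineage and not as proven targets of the bHLH proteins. Over all genes 36.8% had a peak in any list and 13.9% in all 8. Over all regions 28.0% rose and 28.9% fell (47.4% and 11.2% with kept-region scaling). Some counts below lie near these shares, such as those of the blood genes with a peak and of the neuronal rises. Of 27 genes of differentiated skeletal muscle, most of them for contractile proteins, 7 had a peak in any list and 2 in all 8, while 14 of 26 mesoderm and heart genes, 13 of 22 neuronal genes and 3 of 18 blood and endothelial genes had one in all 8. In the 8 muscle regions 1 rose and 1 fell (2 and 0 with kept-region scaling). Mylpf, a myosin light chain with a peak in 1 list, rose by 0.99 ± 0.27 on the log2 scale (SE). Des, or desmin, with a peak in all 8 lists, changed by −0.25 ± 0.09 (SE; 0.089 and not called with kept-region scaling). In the 21 neuronal regions 6 rose and 9 fell (9 and 2 with kept-region scaling). The largest rise was at Tubb3, a neuronal tubulin with a peak in 4 lists (1.25 ± 0.14, SE). The largest fall was at Snap25, a synaptic protein with a peak in 2 lists (−0.69 ± 0.21, SE; not called with kept-region scaling). A region called in few lists can be picked for being high in those libraries.

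In the 22 mesoderm and heart regions 1 rose, at Dll3, a Notch ligand of the somite (0.41 ± 0.11), and 15 fell, most at the higher-coordinate region of Pax1, the sclerotome factor (−1.02 ± 0.10, SE), at a median of −0.58 (5 rose and 10 fell with kept-region scaling). In the 7 blood and endothelial regions 1 rose and 4 fell (2 and 2 with kept-region scaling). The rise was at Klf1, the erythroid factor, with a peak in 4 lists (0.84 ± 0.19, SE). The largest fall was at Gata2, a factor of blood progenitors with a peak in all 8 lists (−1.03 ± 0.09, SE). The lists were not tested against each other.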
